A study of Mus musculus with 44 samples.

Results

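Apolipoproteins are the protein components of lipoproteins, the particles that carry cholesterol and triglyceride through body fluids. The genes described here are the 9 apolipoprotein genes Apoa1, Apoa2, Apoa4, Apob, Apoc1, Apoc2, Apoc3, Apoe and Apom, together with Mttp. They were chosen by name as the genes that build the particle, and they make up 10 of the 32287 gene identifiers listed in the expression files. Each member had 1 identifier, and a value, 0 included, in every one of the 44 libraries. In the assembly step the MTTP protein (microsomal triglyceride transfer protein) loads lipid on to the nascent APOB chain in the endoplasmic reticulum, and the finished particle leaves the cell through the secretory pathway. The visceral endoderm, the extraembryonic epithelium that becomes the endoderm of the yolk sac, assembles such particles before the liver and the intestine do, and in mice it supplies the embryo with lipid from the mother. Embryonic enterocytes and hepatocytes take up the same programme later.

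Gene expression was measured by poly(A) RNA-seq of small samples from mouse embryos made by aggregating GFP+ F1G4 (G4) male embryonic stem cells with an mCherry+ morula of CD1/G4 background. The stem cells formed the embryonic lineage and the morula formed the extraembryonic lineage, so in every comparison of origin the strain background, the reporter and possibly the sex change together with the lineage and cannot be told apart. GFP was driven by the CAG promoter from the Rosa26 locus in a line grown from a single cell, and mCherry by an EF1a promoter on PiggyBac insertions. At E6.5, tissue was dissected from individual embryos as Epi (epiblast), exEndo1 (distal) and exEndo2 (proximal extraembryonic endoderm), with 4 libraries each. At E9.5, EPCAM+ cells were sorted from 4 pooled embryos per library as emMidgut and emHindgut (GFP+ with a low mCherry signal, which the study attributes to remnants taken up from other cells), exMidgut and exHindgut (mCherry+), and YsEndo (mCherry+ yolk sac endoderm), with 4 libraries each. At E13.5, EPCAM+ cells came from organs of single embryos: emSI and emColon (GFP+, wild type; SI is small intestine) and exSI and exColon (mCherry+, Trp53 knockout), with 3 libraries each. The knockout was made in the mCherry+ lineage alone by electroporating zygotes with Cas9 protein and guide RNAs, so at E13.5 origin and Trp53 genotype cannot be told apart. Wild-type extraembryonic cells at E13.5 were not analysed here.

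Levels are given as TPM, a transcript's share of all transcripts after scaling by its length, so levels may be compared between genes. The files gave no read counts. The ratio of coverage to FPKM placed the aligned bases between 3.528 and 12.04 Gb per library, and 10382 to 13596 genes stood above 1 TPM. The reporters followed the labels in all libraries: mCherry was at 1731 to 8667 TPM in the extraembryonic groups and at 0 to 6.61 TPM in the others, whereas EGFP was at 180 to 880 TPM in the embryonic groups and at 0 to 15.9 TPM in the extraembryonic ones. Trp53 RNA was at 33.4 to 167 TPM in exSI against 158 to 201 TPM in emSI, and at 42.5 to 124 TPM in exColon against 151 to 245 TPM in emColon. The transcript was therefore still present in the knockout libraries, with overlap in the small intestine. In YsEndo the 10 most abundant genes took 11.9 to 12.5% of all TPM, against 5.45 to 8.22% in the other groups, which lowers the share left for all other genes there.

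In the mm10 genome, 6 of the members lie in 2 clusters. Apoa1 (chromosome 9, 46228580 to 46230466, forward strand), Apoc3 (46232933 to 46235636, reverse strand) and Apoa4 (46240696 to 46243459, forward strand) are neighbours. Apoc2 (chromosome 7, 19671579 to 19677941), Apoc1 (19689481 to 19692660) and Apoe (19696109 to 19699188) lie together on the reverse strand. The others stand alone: Apoa2 on chromosome 1 (171225054 to 171226379, forward), Apob on chromosome 12 (7977648 to 8016835, forward), Apom on chromosome 17 (35128997 to 35132050, reverse) and Mttp on chromosome 3 (138089854 to 138144968, reverse).

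Promoter windows, 250 bases before to 50 bases after an annotated start, were taken from RefSeq on GRCm38.p6, which is the mm10 assembly. Of the 10 members, 8 matched, with 11 windows. Apoc1 and Apoc3 had no entry. The windows printed are those of Apoa1, the most abundant member in yolk sac endoderm, of Apob, the structural protein that every particle of its class carries, and of Apoc2, which was abundant in visceral endoderm and near 0 in the gut at E9.5. They cover chr9:46228380-46228679 (forward), chr12:7977427-7977726 (forward) and chr7:19677892-19678191 (reverse strand, printed 5′ to 3′), and capitals mark a match to a searched motif.
Apoa1: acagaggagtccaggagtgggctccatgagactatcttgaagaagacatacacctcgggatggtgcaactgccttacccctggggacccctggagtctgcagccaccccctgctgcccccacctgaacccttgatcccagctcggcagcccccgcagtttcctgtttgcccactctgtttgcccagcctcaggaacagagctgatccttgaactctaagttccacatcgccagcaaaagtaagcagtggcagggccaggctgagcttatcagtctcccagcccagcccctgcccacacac
Apob: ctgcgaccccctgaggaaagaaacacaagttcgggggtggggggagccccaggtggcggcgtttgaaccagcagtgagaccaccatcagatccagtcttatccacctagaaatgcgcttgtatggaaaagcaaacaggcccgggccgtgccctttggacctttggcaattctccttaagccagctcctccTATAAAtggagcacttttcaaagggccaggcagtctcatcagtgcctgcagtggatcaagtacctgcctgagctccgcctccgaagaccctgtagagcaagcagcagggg
Apoc2: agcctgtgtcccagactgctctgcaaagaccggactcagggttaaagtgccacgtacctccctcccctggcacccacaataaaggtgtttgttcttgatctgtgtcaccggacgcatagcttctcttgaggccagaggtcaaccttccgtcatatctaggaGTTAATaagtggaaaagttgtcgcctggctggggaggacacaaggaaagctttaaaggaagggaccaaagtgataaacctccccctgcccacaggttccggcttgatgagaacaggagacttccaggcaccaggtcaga
The capitals in Apob are a TATA match at -60 from the RefSeq start, and those in Apoc2 are an HNF1-type match at -89. The RefSeq start used for Apob lies downstream of the gene start given above (7977648), so the match is nearer to the latter. Apoa1 held no match to any of the 4 motifs. Both strands were searched. An HNF4-type motif (CAAAGTCC or GGACTTTG) was in 0 of the 8 members and in 1.42% of all 32851 windows of the same length. The HNF1-type motif (GTTAAT or ATTAAC) was in 2 of the 8, Apoc2 and Apoe, and in 7.1% of all windows. A GATA-type motif (AGATAA or TTATCT) was in 0 of the 8 and in 11.2% of all windows. TATAAA or TTTATA was in 3 of the 8, Apoa2, Apob and Apoe, and in 13.6% of all windows, and in 1 Apoe window 2 such matches overlapped. These matches describe letters and no binding was measured.

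All 10 members had their highest median level in YsEndo, and for 8 of them the YsEndo libraries did not overlap with those of the next group. The exceptions were Apoc2 and Apoe. The summed level of the members was 42057 to 50704 TPM in YsEndo, or 4.206 to 5.07% of all transcripts. It was 11543 to 20692 TPM in exEndo1 and 10282 to 19567 TPM in exEndo2. In the gut the sum was 387 to 931 TPM in emMidgut, 1432 to 4667 TPM in exMidgut, 44.7 to 73.7 TPM in emHindgut and 65.5 to 91.6 TPM in exHindgut. At E13.5 it was 518 to 977 TPM in emSI, 2099 to 3453 TPM in exSI, 1196 to 1984 TPM in emColon and 1071 to 2775 TPM in exColon. Epi stood at 99.2 to 178 TPM. Since each library is a bulk sample, fewer cells with a transcript and less transcript per cell cannot be told apart anywhere in these data.

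**Figure D1:**
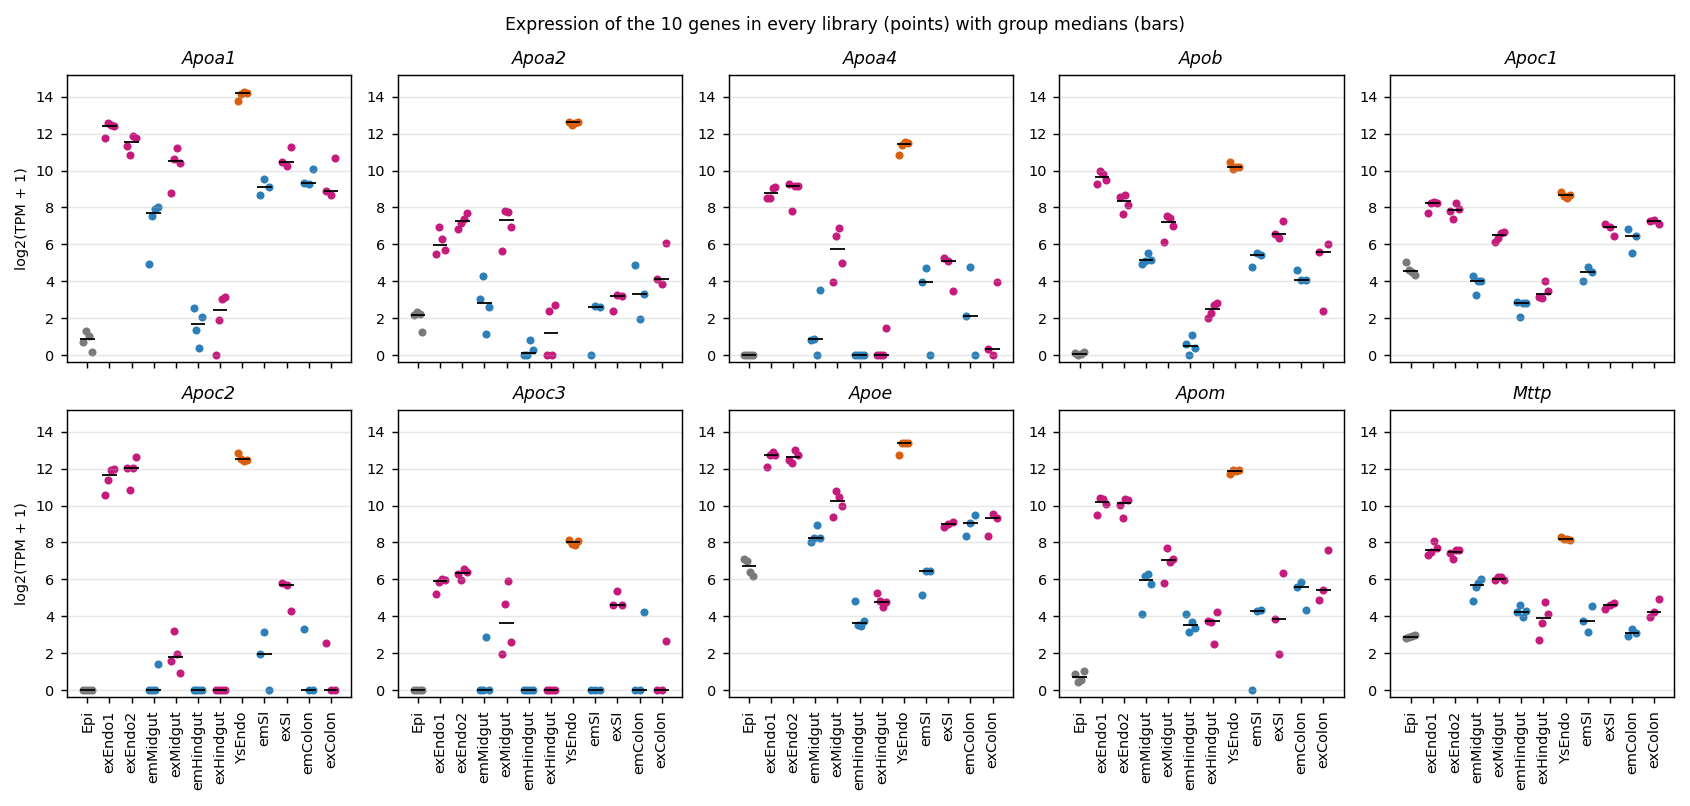
Level of each of the 10 genes in every library, on a log2(TPM + 1) axis, with the 12 groups along the horizontal axis; points are single libraries and black bars group medians (blue embryonic, magenta extraembryonic, orange yolk sac, grey epiblast). The YsEndo libraries lie highest for most genes, from 14160 to 19249 TPM for Apoa1, and the hindgut libraries are near the floor for Apoa4, Apoc2 and Apoc3.

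The make-up of the sum differed between tissues. Apoe, the ligand through which many cells take up lipoproteins, made up 74.7% of the mean sum in Epi. In exEndo1 Apoe took 36.3%, Apoa1 29.5% and Apoc2 17.2%, and in exEndo2 the shares were 40.5%, 18.1% and 25.6%. In YsEndo Apoa1, the main protein of high-density lipoprotein (HDL), led with 36.8%, followed by Apoe with 20.3%, Apoa2 with 12.7% and Apoc2 with 12.6%. In the midgut Apoe led in the embryonic cells (50.0% against 25.9% for Apoa1) and Apoa1 in the extraembryonic cells (43.5% against 36.6% for Apoe). In emHindgut, where the sum was small, Mttp took 34.7% and Apoe 28.0%. Apoa1 was the largest component of all 4 groups at E13.5, with 76.4% in emSI, 66.0% in exSI, 52.5% in emColon and 47.9% in exColon.

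**Figure D2:**
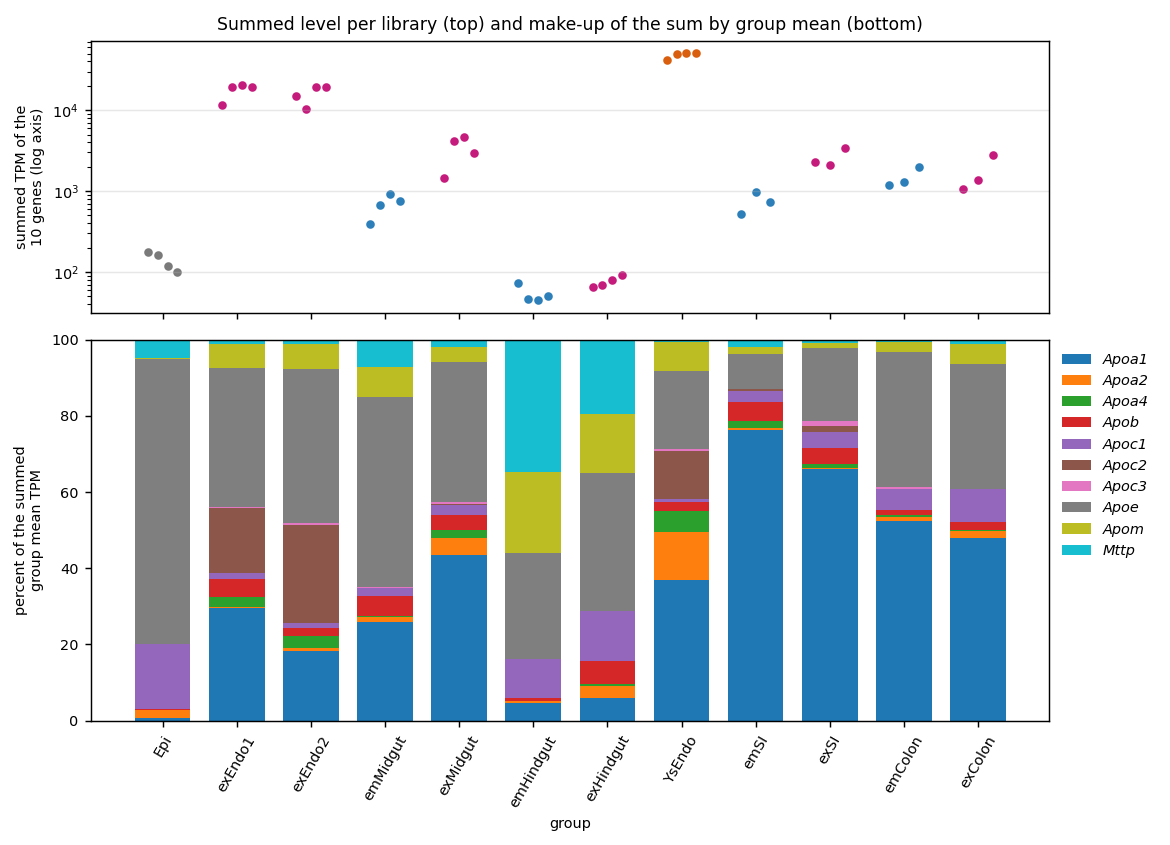
Top, summed TPM of the 10 genes in every library on a logarithmic axis, by group; bottom, share of each gene in the summed group mean, in percent, as stacked bars from 0 to 100. Apoe fills most of the Epi bar, Apoa1 is the largest part of YsEndo and of all 4 groups at E13.5, and Apoc2 is a visible part of the exEndo1, exEndo2 and YsEndo bars.

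The order of the groups differed between genes in the low range. For Apoa2, a second HDL protein, exMidgut (median 167 TPM) ranked next after YsEndo (6224 TPM), with exEndo2 at 154 TPM overlapping it. For Apoc1, exColon (152 TPM) ranked above exSI (121 TPM) and exMidgut (89.0 TPM), and exColon did not overlap with exSI. For Apoc2, the cofactor that activates lipoprotein lipase, the order was YsEndo (5822 TPM), exEndo2 (4156 TPM), exEndo1 (3308 TPM) and, far below these and without overlap, exSI (50.7 TPM). Apoc3, an inhibitor of the same lipase, followed with YsEndo (255 TPM), exEndo2 (80.1 TPM), exEndo1 (58.6 TPM), exSI (23.8 TPM) and exMidgut (14.6 TPM), and had a median of 0 in the other groups. For Mttp the group medians ran from 6.41 TPM in Epi to 288 TPM in YsEndo.

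The E6.5 libraries show how far the members separate visceral endoderm from epiblast. Apob was at 607, 992, 892 and 715 TPM in exEndo1, at 375, 196, 401 and 284 TPM in exEndo2, and at no more than 0.110 TPM in Epi. Apoa4, Apoc2 and Apoc3 were listed at 0 in all 4 Epi libraries, and Apoc2 was at 1531 to 3979 TPM in exEndo1 and at 1804 to 6336 TPM in exEndo2. Apoe, by contrast, was at 70.5 to 135 TPM in Epi, Apoc1 at 19.0 to 32.1 TPM and Mttp at 5.98 to 7.07 TPM. The groups did not overlap for any member. In the limma test across all genes, in which a gene is called when its Benjamini-Hochberg adjusted p is below 0.05 and its difference on the log2(TPM + 1) scale exceeds 1 in size, 10 of 10 members were higher in exEndo1 than in Epi, where 19.8% of the genes tested were higher. Against Epi, exEndo2 was also higher for 10 of 10, with 20.4% of all genes higher. In both comparisons 6 of the 10 passed the filter on low values through the endoderm alone, and a gene that enters in this way had to differ, so the counts carry no weight of their own. Among members expressed on both sides, Apoe was 5.95 higher (log2 scale, SE 0.23, adjusted p = 3.74e-09) in exEndo1, Mttp 4.74 (SE 0.17, 1.93e-09) and Apoc1 3.49 (SE 0.18, 4.33e-08). The label of the Epi libraries names the epiblast while their extraction text names another tissue. Pou5f1, a defining gene of the epiblast, was at 1067 to 1852 TPM in Epi against 0 to 21.7 TPM in the endoderm groups, and Ttr, a gene of visceral endoderm, was listed at 0 in all Epi libraries.

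Genes of the pathway lists differed in both directions at E6.5, where 19.8% of all genes tested were higher in exEndo1. Of 18 genes for particle assembly and lipid supply, 12 were higher and 1 lower in exEndo1 than in Epi, among them Pla2g12b (350 ± 23.4 TPM against 0.0273 ± 0.0380 TPM, SD, n = 4) and Soat2, which esterifies cholesterol (215 ± 42.7 TPM against 0.359 ± 0.231 TPM). Of 13 lipoprotein receptors and their partners, 7 were higher and 3 lower. The receptor partners Amn and Cubn, which form the apical uptake complex of absorptive epithelia, differed by 9.07 (SE 0.21) and 8.85 (SE 0.24) on the log2 scale. Of the 24 regulators listed, 17 were tested and 11 were higher, led by Hnf4a (55.0 ± 9.77 TPM against 0.0101 ± 0.0152 TPM) and Creb3l3, both transcription factors of lipid-handling epithelia. Of the 14 genes for remodelling in plasma and efflux, 8 were tested, of which 3 were higher and 3 lower, with Lpl, the lipase, falling by 3.49 on the log2 scale. Of 9 other apolipoproteins and related genes, 4 were tested and 3 were higher: Apoa5, Apoc4 and A1cf, a cofactor of Apob mRNA editing. In exEndo2 the corresponding counts of higher and lower genes were 11 and 1 for assembly, 6 and 3 for receptors, 10 and 0 for regulators, 3 and 3 for remodelling and 4 and 0 for other apolipoproteins. Both comparisons use the same Epi libraries.

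Within the visceral endoderm, Apob and Apoa2 differed in opposite directions between the distal and the proximal piece. Apoa2 was at 44.3, 121, 77.7 and 50.1 TPM in exEndo1 and at 113, 143, 165 and 208 TPM in exEndo2, so only exEndo1 replicate 2 reached into the proximal range. Apob did not overlap between the groups and was 1.38 higher in exEndo1 (log2 scale, SE 0.22, adjusted p = 0.00202), a ratio of means of 2.55. Apoa2 was lower in exEndo1 by -1.17 (SE 0.29, adjusted p = 0.0194). Thus 1 member was called higher and 1 lower among 10 tested, where 6.41% of all genes were called in either direction. The Apoa2 call was lost, with adjusted p from 0.0400 to 0.0602 and a difference of -1.14 to -0.97, without exEndo1 replicate 1 or 4 or exEndo2 replicate 3 or 4. Apoa1 was at 3503 to 6181 TPM in exEndo1 against 1815 to 3790 TPM in exEndo2. Its difference of 0.86 (SE 0.23, adjusted p = 0.0310) was under the size threshold, and it became a call (1.04 and 1.01) without exEndo1 replicate 1 or exEndo2 replicate 3. For Apoe (-0.03, SE 0.19), Apoa4 (-0.05, SE 0.30) and Apom (0.09, SE 0.24) no difference was detected. The distal libraries also held more of the 9 yolk sac endoderm markers in sum (17997 to 23199 TPM against 5192 to 11632 TPM), of the epiblast markers (369 to 572 TPM against 174 to 233 TPM), the hepatoblast markers (81.6 to 119 TPM against 40.6 to 79.7 TPM) and the extraembryonic ectoderm markers (67.2 to 102 TPM against 21.7 to 57.7 TPM), and less of the mesenchyme markers (8.69 to 15.7 TPM against 45.6 to 88.8 TPM), and their part in the result was not tested. Of the pathway lists, Fabp1, a cytoplasmic fatty acid carrier (-3.93), Dgat2, an enzyme of triglyceride synthesis (-1.05), the receptor gene Lrp2 (-1.46), Creb3l3 (-1.23) and A1cf (-1.30) were lower in exEndo1, and the receptor gene Lrp1 (1.86) and the transcription factor gene Foxa1 (3.45) were higher.

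At E9.5 the comparison of origin bears on the study's question of how far gut cells of extraembryonic origin come to resemble their embryonic neighbours. In the midgut 6 of 10 members were higher in exMidgut than in emMidgut: Apoa1, Apoa2, Apoa4, Apob, Apoc1 and Apoe. Of all genes tested 1.23% were higher. The median difference of the members was 2.18 on the log2 scale, beside -0.04 over all genes, and 2 of the 10 (Apoa4 and Apoc3) had passed the filter through exMidgut alone.

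Apoc1, whose product binds to several lipoprotein classes, was at 67.8, 79.8, 98.2 and 101 TPM in exMidgut and at 18.5, 8.71, 15.0 and 15.5 TPM in emMidgut. The groups were far apart, with a ratio of means of 6.01 and a log2 difference of 2.53 (SE 0.25, adjusted p = 2.67e-05). Apoa2 was at 48.0, 222, 213 and 122 TPM in exMidgut and at 7.28, 18.6, 1.24 and 5.10 TPM in emMidgut. Its ratio of means was 18.7 and its log2 difference 4.24 (SE 0.57, adjusted p = 0.000560), and every extraembryonic library lay above every embryonic one. Apoe was at 673, 1757, 1405 and 1020 TPM in exMidgut against 258, 306, 498 and 306 TPM in emMidgut, a difference of 1.78 (SE 0.25, adjusted p = 0.000846). Again the groups did not overlap.

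Apob was at 68.3, 181, 171 and 125 TPM in exMidgut and at 29.7, 33.5, 44.6 and 34.3 TPM in emMidgut. It was 1.83 higher (SE 0.27, adjusted p = 0.00112). Apoa1 was at 440, 1580, 2410 and 1332 TPM against 29.7, 183, 236 and 260 TPM, a difference of 3.16 (SE 0.59, adjusted p = 0.00746) and a ratio of means of 8.13. Apoa4, a protein of chylomicrons and HDL, was at 14.3, 86.5, 117 and 31.0 TPM against 0.791, 0.828, 0 and 10.7 TPM, a difference of 4.25 (SE 0.73, adjusted p = 0.00422). None of these 3 genes overlapped between the groups.

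The other 4 members were not called. Mttp was at 60.6 to 68.9 TPM in exMidgut and at 27.0 to 64.2 TPM in emMidgut, with overlap and a difference of 0.48 (SE 0.23, adjusted p = 0.325). Apom, a carrier of a signalling sphingolipid on HDL, was at 54.7, 207, 123 and 138 TPM against 16.2, 70.4, 76.4 and 52.3 TPM (1.33, SE 0.44, adjusted p = 0.127). Apoc3 was at 2.81, 24.1, 58.7 and 5.00 TPM against 0, 0, 6.27 and 0 TPM (3.05, SE 0.84, adjusted p = 0.0649). Apoc2 was near the floor in both groups, at 0.908 to 8.33 TPM against 0 to 1.68 TPM (1.57, SE 0.59, adjusted p = 0.184). Of the exMidgut libraries, replicate 1 was lowest for 8 of the 10 members, and also for the summed yolk sac endoderm markers. Without it 8 members were called, Apoc3 (3.66, adjusted p = 0.0241) and Apom (1.69, adjusted p = 0.0342) being added. Apoc3 was also called (3.77, adjusted p = 0.0256) without emMidgut replicate 3, and no single library removed any of the 6 calls. Without the filter on low values Apoa1 (adjusted p = 0.123), Apoa4 (0.0849) and Apoe (0.0515) were not called, and without the trend in limma's variance prior Apoa1 (0.0755) was not.

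**Figure D3:**
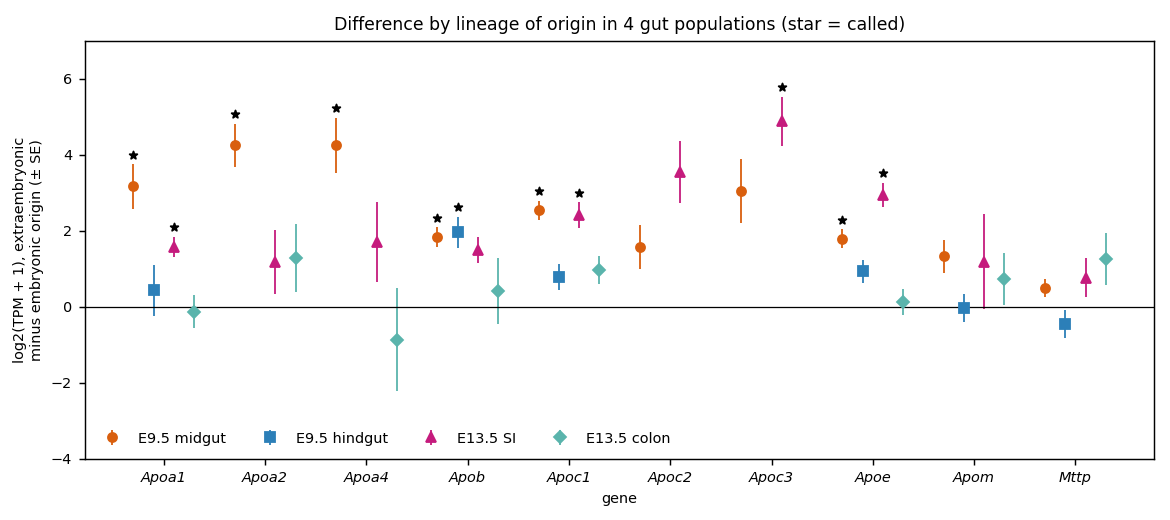
Difference of each gene between extraembryonic and embryonic origin on the log2(TPM + 1) scale, with its standard error as a bar, in midgut, hindgut, small intestine and colon; a star marks a call and genes too low to test have no symbol. Apoc1 and Apoe carry a star in midgut and small intestine, Apob in midgut and hindgut, and no gene does in the colon.

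Markers of other cell types moved with the midgut result. The 9 yolk sac endoderm markers, all above 1 TPM in some library of each group, summed to 7619 to 16115 TPM in exMidgut and 1863 to 3461 TPM in emMidgut, with Afp at 4641 to 8162 TPM and 662 to 978 TPM. The 8 hepatoblast markers summed to 366 to 898 TPM and 215 to 245 TPM, of which Serpina1a made up 178 to 331 TPM and 161 to 179 TPM. Of the defining genes, Alb was at 1.75 to 4.38 TPM in exMidgut and 0 to 3.16 TPM in emMidgut, and Ahsg at no more than 1.51 TPM. Most of the rise in the hepatoblast sum therefore came from markers of that list not named here. All 8 were above 1 TPM in some exMidgut library, and 6 in some emMidgut library. The macrophage markers summed to 9.26 to 26.0 TPM and 7.59 to 24.8 TPM, with Ptprc at no more than 0.157 TPM. The 6 extraembryonic ectoderm markers went the other way, at 158 to 225 TPM in exMidgut and 308 to 407 TPM in emMidgut, of which Cdx2, also on the gut epithelium list, made up 127 to 180 TPM and 293 to 401 TPM. The part of these markers in the result was not tested. The 8 gut epithelium markers were alike in range, at 4218 to 4949 TPM and 4315 to 5144 TPM.

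**Figure D4:**
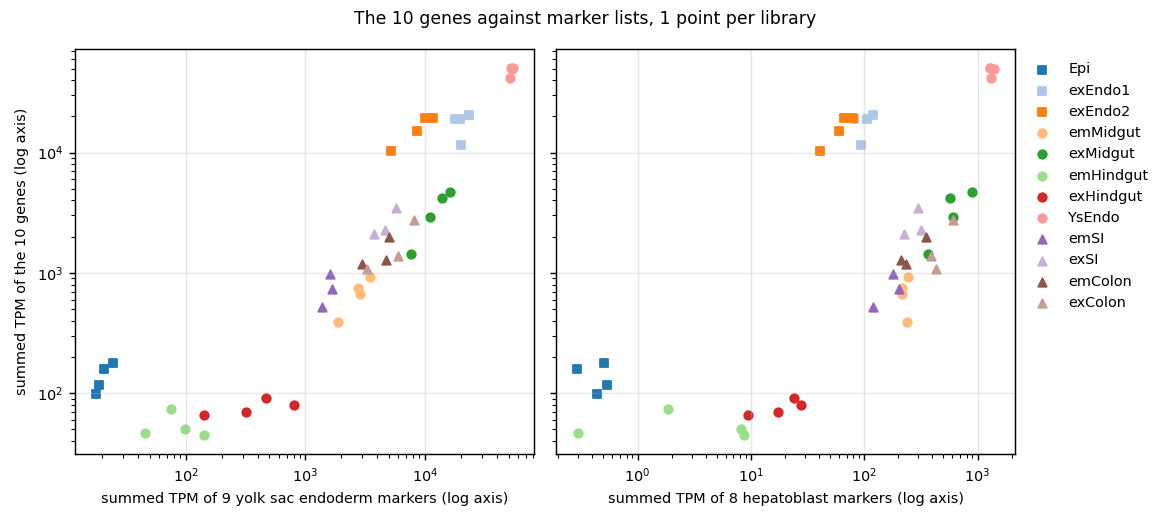
Summed TPM of the 10 genes against the summed TPM of the 9 yolk sac endoderm markers (left) and the 8 hepatoblast markers (right), 1 point per library, all axes logarithmic, with colour for group and shape for stage. The exMidgut points lie above and to the right of the emMidgut points in both panels, and the exEndo1 and exEndo2 points lie higher than any gut library while holding fewer hepatoblast marker transcripts than the midgut libraries.

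Some of the other pathway genes differed by origin in the midgut, where 153 of all 12432 genes tested were higher and 168 lower. Of 18 assembly genes 17 were tested, with 3 higher and 1 lower. Pla2g12b was 40.7 ± 28.9 TPM (SD, n = 4) in exMidgut and 1.96 ± 1.36 TPM in emMidgut (3.24, adjusted p = 0.0307), and Cideb, a lipid droplet protein, was 10.4 ± 3.75 TPM and 1.16 ± 1.43 TPM (2.55, adjusted p = 0.00831). Fabp1 went the other way, at 36.2 ± 18.9 TPM against 181 ± 53.7 TPM (-2.37, adjusted p = 0.000353). Of the 13 receptors 2 were higher, Amn (4.62, adjusted p = 0.000175) and Cubn (1.94, adjusted p = 0.0224), and both belong to the yolk sac marker list as well. Lipc, a lipase of HDL, was the single gene called among 9 remodelling genes tested (1.69, adjusted p = 0.00450). None of the 19 regulators tested and none of the 4 other apolipoproteins passed.

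In the hindgut most members were at or near the floor in both origins, and 4 of 10 (Apoa2, Apoa4, Apoc2 and Apoc3) were too low to test. Of the 6 tested, 1 was higher in exHindgut, where 1.37% of all genes were. Apob was at 3.05, 3.90, 5.65 and 6.04 TPM in exHindgut and at 0.499, 0, 1.09 and 0.300 TPM in emHindgut, without overlap. The difference was 1.96 (SE 0.41, adjusted p = 0.0118), and Apob passed the filter through exHindgut alone. Apoc1 did not overlap between the groups either, at 7.47 to 15.0 TPM in exHindgut and 3.18 to 6.36 TPM in emHindgut. Its difference of 0.77 (SE 0.33, adjusted p = 0.216 in limma) was not called. Apoe was at 21.4 to 36.8 TPM in exHindgut against 10.0, 10.3, 12.5 and 27.4 TPM in emHindgut (0.94, SE 0.30, adjusted p = 0.0965), and it was called (1.25, adjusted p = 0.0194) without emHindgut replicate 1. Mttp was at 5.60 to 26.4 TPM and 14.8 to 23.6 TPM (-0.46, SE 0.36, adjusted p = 0.546), and Apom at 4.73 to 18.0 TPM and 7.91 to 16.7 TPM (-0.03, SE 0.37). The yolk sac markers summed to 142 to 801 TPM in exHindgut and 45.8 to 142 TPM in emHindgut, the hepatoblast markers to 9.48 to 27.7 TPM and 0.299 to 8.67 TPM, and their part in the Apob difference was not tested. Pla2g12b was the other gene of assembly to be higher in exHindgut (2.55, adjusted p = 0.0108).

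Whether the effect of origin differed between hindgut and midgut was tested with an interaction term, and 0 of 10 members passed in the limma test, where 0.0965% of all genes did. At an unadjusted p below 0.05 there were 7 members. The values were negative for 9 of 10, where a negative value is a smaller difference in the hindgut. Apoc2 and Apoc3 were listed at 0 in all 8 hindgut libraries, so the midgut difference alone set their sign. Apoa2 was listed at 0 in 2 libraries of each hindgut group. The count of signs therefore carries no weight of its own. The smallest adjusted p were those of Apoc1 (-1.76, SE 0.41, 0.113) and Apoa4 (-3.89, SE 0.94, 0.132). Apoa4 passed (-4.64, adjusted p = 0.0300) without emMidgut replicate 4, the 1 emMidgut library above 1 TPM for it. It had passed the filter through exMidgut alone and was listed at 0 in 7 of 8 hindgut libraries, so its value is the midgut difference set against a floor. Apob differed by 0.13 (SE 0.46) between the regions. With midgut and hindgut pooled, exGut against emGut gave 0 of 10 calls in limma, 3 at an unadjusted p below 0.05, and 2.35% of all genes called. With gut region as a covariate 6 members were called, beside 587 of the 13473 genes tested. They were Apoa1 (1.79, adjusted p = 0.0446), Apoa2 (2.62, 0.00483), Apoa4 (2.31, 0.0208), Apob (1.89, 6.45e-06), Apoc1 (1.65, 0.000322) and Apoe (1.36, 0.000262). Of the 10 members, 2 (Apoa4 and Apoc3) had passed the filter through exGut alone.

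The yolk sac endoderm shares its extraembryonic origin with exMidgut and exHindgut but stays outside the embryo. All 10 members were lower in exMidgut than in YsEndo, where 10.7% of all genes were lower, and 1 of them, Apoc2, passed the filter through YsEndo alone. The smallest ratios of means were 4.55 for Mttp and 4.67 for Apoc1, followed by 8.05 for Apoe and 8.78 for Apob. Apoa1 was at 14160 to 19249 TPM in YsEndo, 12.3 times its mean in exMidgut (-3.85, SE 0.39, adjusted p = 4.47e-06). Apoa2 and Apoa4 showed ratios of 40.6 and 41.9 and Apom of 28.3.

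Apoc2 stood apart from the rest. It was at 7266, 5961, 5390 and 5683 TPM in YsEndo and at 1.97, 8.33, 2.95 and 0.908 TPM in exMidgut, a ratio of means of 1716 (-10.63, SE 0.37, adjusted p = 1.47e-09). In the hindgut it was listed at 0 in all 8 libraries. Its neighbours Apoc1 and Apoe, in the same cluster on chromosome 7, were at 67.8 to 101 TPM and 673 to 1757 TPM in exMidgut. In the other cluster, Apoa1, Apoc3 and Apoa4 had ratios of means of 12.3, 11.2 and 41.9 between YsEndo and exMidgut.

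Against YsEndo, exHindgut was lower for 10 of 10 members, where 12.5% of all genes were lower, and 5 of the 10 passed the filter through YsEndo alone. Among the 5 expressed in both, the differences ran from -4.38 (SE 0.33) for Mttp to -8.41 (SE 0.18) for Apoe. Both comparisons share the YsEndo libraries. The median of all genes was 0.51 for exMidgut and 0.56 for exHindgut against YsEndo on TPM as deposited, and 0.02 and 0.04 after median-ratio rescaling, under which 54.7% and 52.3% of the called genes were higher in the gut instead of 75.8% and 73.0%. All 20 member differences kept their direction and call under the rescaling. Of the assembly list, 9 of 18 were lower in exMidgut and 1 higher, with Soat2 at 6.95 ± 8.38 TPM against 225 ± 27.8 TPM and Fabp2, an intestinal fatty acid carrier, at 4.87 ± 2.77 TPM against 133 ± 21.3 TPM. Of 22 regulators tested, 9 were higher and 6 lower in exMidgut, with Foxa1 (115 ± 8.35 TPM against 1.78 ± 1.29 TPM) and Nr2f2 (135 ± 25.5 TPM against 6.93 ± 2.12 TPM) higher and Creb3l3 (2.81 ± 2.75 TPM against 152 ± 26.8 TPM) lower. Of 12 receptors tested 4 were higher and 5 lower, Cubn, Amn and Dab2 among the lower. Of 10 remodelling genes tested 3 were higher and 3 lower, and of 4 other apolipoproteins Clu was higher and Apoc4 and A1cf were lower.

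**Figure D5:**
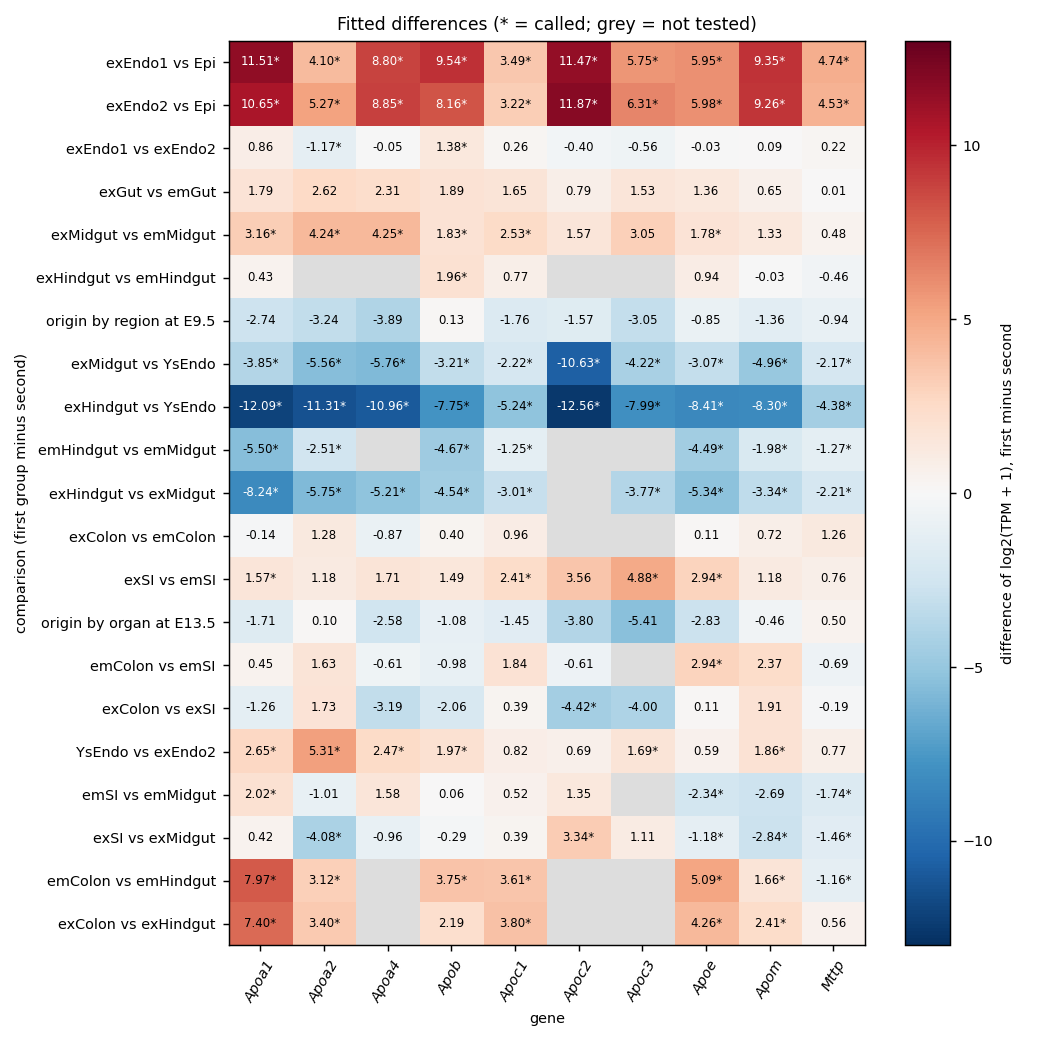
Difference of each member on the log2(TPM + 1) scale for each comparison, first group minus second, in colour and number, grey where a gene was too low to test, and asterisks for calls (adjusted p below 0.05 and a difference over 1 in size; adjusted p alone for interactions). Rows against YsEndo are negative throughout, the midgut origin row is positive with 6 asterisks, and the colon origin row has none.

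Levels also differed along the gut at E9.5. Between the embryonic regions 7 of the 7 members tested were lower in emHindgut than in emMidgut, where 8.61% of all genes were lower, and 3 passed the filter through emMidgut alone. Apoe was at 27.4, 10.3, 10.0 and 12.5 TPM in emHindgut, against 258 to 498 TPM in emMidgut, a difference of -4.49 (SE 0.27, adjusted p = 3.76e-08) and a ratio of means of 22.7. Mttp (-1.27, SE 0.25, adjusted p = 0.00194), Apoc1 (-1.25, SE 0.32, 0.0108) and Apom (-1.98, SE 0.40, 0.00195) differed less. In the extraembryonic cells 9 of the 9 members tested were lower in exHindgut than in exMidgut, beside 6.78% of all genes, with 4 that passed through exMidgut alone. Apoe was at 21.4 to 36.8 TPM in exHindgut (-5.34, SE 0.25, adjusted p = 9.50e-09), Apob was 29.3 times lower in mean (-4.54, SE 0.32, 6.48e-07) and Mttp differed by -2.21 (SE 0.35, 0.000531). Apoa1 was at 0, 2.69, 7.22 and 7.88 TPM in exHindgut and at 4.94, 1.58, 0.302 and 3.15 TPM in emHindgut. Of the regulators, 9 of 18 tested were lower in the hindgut and 0 higher in the embryonic cells, and 11 of 20 and 0 in the extraembryonic cells. Onecut1 (-3.56 and -4.21), Gata4 (-3.52 and -4.08) and Nr5a2 (-3.35 and -3.96), genes of foregut and midgut transcription factors, had the largest differences in both. Of assembly genes 1 was higher and 1 lower of 15 in emHindgut, and 0 and 5 of 18 in exHindgut. Of receptors the counts were 0 and 3 of 13, and 0 and 4 of 13, of remodelling genes 2 and 2 of 10, and 0 and 2 of 8, and of other apolipoproteins 0 and 2 of 3, and 0 and 1 of 4. The marker lists differed along the gut as well. In emHindgut against emMidgut the yolk sac markers summed to 45.8 to 142 TPM against 1863 to 3461 TPM, the hepatoblast markers to 0.299 to 8.67 TPM against 215 to 245 TPM and the gut epithelium markers to 1906 to 2251 TPM against 4315 to 5144 TPM. In exHindgut against exMidgut the sums were 142 to 801 TPM against 7619 to 16115 TPM, 9.48 to 27.7 TPM against 366 to 898 TPM and 2265 to 2954 TPM against 4218 to 4949 TPM. Their part in the result was not tested.

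At E13.5, 4 of 10 members were higher in exSI than in emSI, where 0.51% of all genes were: Apoa1, Apoc1, Apoc3 and Apoe. The median difference of the members was 1.64 on the log2 scale, beside -0.00 over all genes, and 5 of the 10 passed the filter through exSI alone. Apoe was at 451, 514 and 546 TPM in exSI and at 35.2, 87.7 and 86.4 TPM in emSI, a ratio of means of 7.22 (2.94, SE 0.32, adjusted p = 0.000756). The groups did not overlap. Apoc1 was at 136, 121 and 86.9 TPM against 15.1, 25.8 and 21.7 TPM (2.41, SE 0.34, adjusted p = 0.00535). Apoa1 was at 1432, 1224 and 2502 TPM against 412, 754 and 541 TPM (1.57, SE 0.27, adjusted p = 0.0219). Apoc3 was at 23.6, 40.7 and 23.8 TPM in exSI and listed at 0 in all 3 emSI libraries, and it passed the filter through exSI alone (adjusted p = 0.00352).

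Of the members not called, Apob did not overlap between the groups either, at 91.8, 81.1 and 152 TPM in exSI and 26.2, 45.0 and 41.5 TPM in emSI (1.49, SE 0.34, adjusted p = 0.0994). Apoc2 was at 55.3, 50.7 and 18.5 TPM against 2.90, 7.94 and 0 TPM (3.56, SE 0.82, adjusted p = 0.0957), again without overlap. Mttp, at 20.1 to 25.4 TPM against 7.72 to 22.8 TPM, Apom, at 2.90 to 79.2 TPM against 0 to 19.1 TPM, and Apoa4, at 10.3 to 36.6 TPM against 0 to 25.5 TPM, overlapped. Apoa2 was low in both, at 4.29 to 8.56 TPM and 0 to 5.35 TPM. The calls rest on few libraries. Apoa1 was lost (adjusted p 0.0547 to 0.121) without emSI replicate 1 or 3 or exSI replicate 1 or 3, and Apoc1 was lost (2.27, adjusted p = 0.0611) without exSI replicate 1, which left 2 calls. Without the filter on low values no member was called (adjusted p 0.0727 for Apoc3, 0.0833 for Apoc1, 0.122 for Apoe and 0.336 for Apoa1), and without the trend in the variance prior Apoc3 alone was.

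The yolk sac markers summed to 3738 to 5742 TPM in exSI and 1379 to 1671 TPM in emSI, and the hepatoblast markers to 223 to 315 TPM and 121 to 201 TPM, with Alb at no more than 5.95 TPM and Ahsg listed at 0. Other markers of the hepatoblast list therefore made up most of its sum. Mesenchyme markers summed to 384, 96.7 and 1.75 TPM in the 3 emSI libraries and to no more than 1.05 TPM in exSI, and neural markers to 8.74 to 15.3 TPM and no more than 1.74 TPM. The part of these markers in the result was not tested. Among other pathway genes, Amn (169 ± 34.6 TPM against 17.1 ± 5.28 TPM, SD, n = 3, 3.25, adjusted p = 0.000482), Fabp1 (569 ± 405 TPM against 98.4 ± 50.1 TPM, 2.41, 0.0309), Clu (2.44, 0.0381) and Lmf1, a lipase maturation factor (2.13, 0.0381), were each the single gene of their list that was higher, and 0 were lower. Of 20 regulators tested 0 were called.

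In the colon 0 of the 8 members tested differed between exColon and emColon in limma, with 1 at an unadjusted p below 0.05, and 0.269% of all genes were called. Apoe was at 329, 743 and 649 TPM in exColon and 330, 522 and 730 TPM in emColon (0.11, SE 0.34). Apoa1 was at 479, 413 and 1616 TPM and 637, 608 and 1099 TPM (-0.14, SE 0.43). These groups overlapped. Apoc1, at 152, 157 and 137 TPM against 111, 45.2 and 85.9 TPM (0.96, SE 0.37, adjusted p = 0.419), and Mttp, at 14.7, 17.9 and 29.3 TPM against 6.60, 9.10 and 7.61 TPM (1.26, SE 0.69, adjusted p = 0.576), did not overlap. No gene of the 5 pathway lists was called. The standard errors, up to 1.35 for Apoa4, leave room for differences of several fold. The yolk sac markers overlapped too, at 3304 to 8062 TPM and 2971 to 4997 TPM, while the hepatoblast markers did not, at 388 to 607 TPM in exColon and 211 to 351 TPM in emColon, and the part of either in these differences was not tested.

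Whether the effect of origin differed between colon and small intestine was tested in the same way, with 0 of 10 members passing in limma, 5 at an unadjusted p below 0.05, and 0.016% of all genes. The difference for Apoe was -2.83 (SE 0.53, adjusted p = 0.159). Between the organs, Apoe was the 1 of 9 members tested that was higher in emColon than in emSI, beside 0.222% of all genes (2.94, SE 0.39, adjusted p = 0.0104). The call was lost (3.16, adjusted p = 0.0590) without emSI replicate 2. The yolk sac markers were also higher without overlap in emColon (2971 to 4997 TPM against 1379 to 1671 TPM), as were the hepatoblast markers (211 to 351 TPM against 121 to 201 TPM), and their part in the result was not tested. Apoc1 also did not overlap between these groups (1.84, SE 0.44, adjusted p = 0.139). In the extraembryonic cells Apoc2 was the 1 of 10 lower in exColon than in exSI, beside 0.473% of all genes, at 4.84, 0 and 0 TPM against 55.3, 50.7 and 18.5 TPM (-4.42, SE 0.88, adjusted p = 0.0470). However, 3 of the 10 (Apoa4, Apoc2 and Apoc3) had passed the filter through exSI alone, so this count carries no weight of its own. The Apoc2 call was lost (adjusted p 0.0758 to 0.244) without any 1 of the 3 exSI libraries or exColon replicate 2 or 3. Without exColon replicate 3, Apoa1 (-1.88, adjusted p = 0.0271) and Apoc3 (-4.88, 0.0442) were called instead. The hepatoblast markers were higher in exColon without overlap (388 to 607 TPM against 223 to 315 TPM), and their part in the result was not tested.

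Comparisons across stages join libraries of different tissue pieces and gates, so stage and sampling cannot be told apart. From exMidgut to exSI and from exHindgut to exColon the Trp53 genotype changes as well, from wild type to knockout. In these comparisons stage and genotype cannot be told apart either. From exEndo2 to YsEndo 6 of 10 members were higher, beside 7.95% of all genes: Apoa2 (5.31, SE 0.15), Apoa1 (2.65, SE 0.20), Apoa4 (2.47, SE 0.28), Apob (1.97, SE 0.19), Apom (1.86, SE 0.19) and Apoc3 (1.69, SE 0.13), with adjusted p of at most 8.00e-06. Apoa2 was at 6265, 5749, 6184 and 6351 TPM in YsEndo and at 113 to 208 TPM in exEndo2, a ratio of means of 39.0. Apoc1 (0.82, SE 0.15), Mttp (0.77, SE 0.12), Apoc2 (0.69, SE 0.28) and Apoe (0.59, SE 0.17) also had adjusted p below the threshold, but smaller differences. The median of all genes was -0.41 here on TPM as deposited, and -0.03 after median-ratio rescaling, under which Apoc1 (1.23), Mttp (1.18) and Apoc2 (1.10) were called too and 52.9% instead of 26.9% of the called genes were higher. Of 8 remodelling genes tested 6 were higher and 0 lower, with Lipc (50.7 ± 6.68 TPM against 4.08 ± 0.976 TPM) and Lcat, which esterifies cholesterol on HDL (40.5 ± 9.41 TPM against 4.02 ± 1.38 TPM). Of 17 assembly genes 3 were higher and 1, Fabp1, lower. Of 20 regulators 5 were higher and 6 lower, among them Nr1h4 (3.18), a bile acid receptor, and Gata6 (-2.85). Of 10 receptors 1 was higher and 1 lower, and of 4 other apolipoproteins 2 were higher and 0 lower. The yolk sac markers summed to 51776 to 54911 TPM in YsEndo against 5192 to 11632 TPM in exEndo2, and the hepatoblast markers to 1279 to 1398 TPM against 40.6 to 79.7 TPM, and their part in the result was not tested.

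From midgut to small intestine the members split. In the embryonic cells Apoa1 was higher in emSI than in emMidgut (2.02, SE 0.60, adjusted p = 0.0332), and 2 were lower, Apoe (-2.34, SE 0.32, 0.000519) and Mttp (-1.74, SE 0.40, 0.0100). These are 3 of the 9 tested, beside 16.8% of all genes called in either direction. Another 2 of the 9, Apoa2 and Apom, had passed the filter through emMidgut alone. The Apoa1 call was lost (adjusted p 0.0585 to 0.0949) without emMidgut replicate 2 or emSI replicate 2 or 3. Apom was called lower without emSI replicate 2 or 3 (-3.40 and -3.42), and Apoa4 (3.03) and Apoc2 (2.21) higher without emSI replicate 3. In the extraembryonic cells 1 of 10, Apoc2, was higher in exSI than in exMidgut (3.34, SE 0.62, adjusted p = 0.00374), and 4 were lower, beside 15.4% of all genes called in either direction. Apoa2 was at 4.29, 8.56 and 8.05 TPM in exSI against 48.0 to 222 TPM in exMidgut (-4.08, SE 0.49, 0.000317). Mttp (-1.46, SE 0.25, 0.00214), Apoe (-1.18, SE 0.26, 0.00925) and Apom (-2.84, SE 0.79, 0.0277) were the other 3. Apoe moved under the size threshold (-0.98) without exMidgut replicate 2, and Apom lost its call (adjusted p 0.0635 to 0.0810) without exMidgut replicate 2, 3 or 4 or exSI replicate 1 or 2. After median-ratio rescaling the Apoe difference was -0.95 and under the size threshold. Fabp2, the intestinal fatty acid carrier, was higher in both origins (5.99 and 5.20), as was the transcription factor gene Hnf4g (3.94 and 4.39). Lipc (-2.68 and -4.24), Abcg1, a sterol exporter (-1.92 and -1.65), and Nr2f2 (-2.33 and -2.22) were lower in both. By list, emSI against emMidgut had 2 higher and 3 lower of 16 assembly genes, 2 and 5 of 13 receptors, 0 and 3 of 10 remodelling genes, 3 and 4 of 21 regulators and 1 and 3 of 4 other apolipoproteins. For exSI against exMidgut the counts were 3 and 2 of 18, 1 and 4 of 13, 0 and 3 of 8, 3 and 3 of 24, and 0 and 1 of 4. The yolk sac markers were lower without overlap in emSI (1379 to 1671 TPM against 1863 to 3461 TPM) and exSI (3738 to 5742 TPM against 7619 to 16115 TPM), as were the hepatoblast markers (121 to 201 TPM against 215 to 245 TPM, and 223 to 315 TPM against 366 to 898 TPM). Their part in the result was not tested. The median of all genes was -0.37 and -0.33, and -0.10 and -0.12 after median-ratio rescaling, which raised the share of called genes that were higher from 19.4% to 39.5% and from 25.8% to 42.1%.

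From hindgut to colon 6 members were higher in the embryonic cells and 5 in the extraembryonic cells, with 3 of the 10 too low to test in each. In the embryonic cells 6 of 7 tested were higher in emColon than in emHindgut and 1 was lower, beside 20.7% of all genes called in either direction. Of the 7, 2 (Apoa2 and Apob) had passed the filter through emColon alone. Apoa1 was at 637, 608 and 1099 TPM in emColon (7.97, SE 0.51, adjusted p = 3.77e-05), and Apoe (5.09, SE 0.39), Apob (3.75, SE 0.45), Apoc1 (3.61, SE 0.42), Apoa2 (3.12, SE 0.66) and Apom (1.66, SE 0.45) were higher too. Mttp was the member that fell (-1.16, SE 0.37, adjusted p = 0.0464), from 14.8 to 23.6 TPM in emHindgut to 6.60 to 9.10 TPM in emColon. Mttp was not called after median-ratio rescaling (-0.83, adjusted p = 0.151). The Mttp call was lost (adjusted p 0.0589 to 0.137) without any 1 emHindgut library or emColon replicate 1, and the Apom call (adjusted p 0.0533 to 0.0771) without emHindgut replicate 2, 3 or 4 or emColon replicate 1 or 2. In the extraembryonic cells 5 of 7 were higher in exColon than in exHindgut, beside 3.63% of all genes: Apoa1 (7.40, SE 0.75), Apoe (4.26, SE 0.30), Apoc1 (3.80, SE 0.30), Apoa2 (3.40, SE 0.86) and Apom (2.41, SE 0.64). Of the 7, 1 (Apoa2) had passed the filter through exColon alone. The Apoa2 call was lost (adjusted p 0.0698 to 0.0817) without exHindgut replicate 1 or 3 or exColon replicate 3, and the Apom call (0.0591 to 0.0954) without any 1 exHindgut library or exColon replicate 3. Apob (2.19, SE 0.79, adjusted p = 0.102) was called (3.33, 0.00176) without exColon replicate 2, where it was at 4.20 TPM against 46.6 and 64.0 TPM in the others. Of the regulators 7 of 18 tested were higher in emColon and 7 of 19 in exColon, with 0 lower, among them Hnf4a (4.65 and 3.92) and Nr5a2 (3.04 and 4.24). In emColon 0 assembly genes were higher and 4 lower of 14 tested, 1 receptor higher and 3 lower of 13, and 0 remodelling genes higher and 2 lower of 9. In exColon 1 assembly gene was higher and 0 lower of 15, 1 receptor higher and 1 lower of 12, and 0 remodelling genes higher and 1 lower of 10. In both, 1 of the other apolipoproteins was higher (Clu, 2.66 and 1.58) and 1 lower (Apoa5, -3.37 and -3.46). Yolk sac markers summed to 2971 to 4997 TPM in emColon against 45.8 to 142 TPM in emHindgut, and to 3304 to 8062 TPM in exColon against 142 to 801 TPM in exHindgut. The hepatoblast markers summed to 211 to 351 TPM against 0.299 to 8.67 TPM, and to 388 to 607 TPM against 9.48 to 27.7 TPM. Their part in the result was not tested. The medians of all genes were -0.54 and -0.21, and -0.23 and -0.11 after rescaling, with the share of called genes that were higher changing from 20.1% to 38.3% in the embryonic cells.

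Across the 44 libraries the members followed each other, as a description over groups that share tissue, stage and depth. Pearson's r of log2(TPM + 1) ran from 0.683 (Apoc1 with Mttp) to 0.939 (Apoa1 with Apob). Among the 10903 genes with a group mean above 10 TPM, the genes most like Apob were Myo6 (0.946), Clic6 (0.942) and Cldn2 (0.939), and those most like Apoa1 were Apob, Myo6 (0.932) and Ttr (0.928). Apoc2 was most like Atp6v0b (0.968), Cidec (0.956) and Smlr1 (0.953), Apoa4 like Ctsl (0.936), Atp6v0e (0.930) and Apoc2 (0.921), and Mttp like Lamp1 (0.962), Slc39a8 (0.924) and Slco4c1 (0.920). Apoe was nearest to Reep6 (0.927), Apoc1 (0.926) and Cubn (0.922), Apoc1 to Apoe, Amn (0.900) and 2610528J11Rik (0.895), and Apom to Rnf181 (0.926), Cubn (0.924) and Ctsl (0.922). Apoa2 was nearest to Fga (0.923), Slc23a3 (0.889) and Fmo1 (0.878), and Apoc3 to F10 (0.928), Tmem37 (0.905) and Soat2 (0.905). Apoc1 and Apoe were each other's near neighbour both in the genome and in this measure.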

How the data were processed

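RNA-seq libraries were made by a low-input poly(A) protocol and sequenced as paired ends. Per the labels and the study's methods, the authors used cutadapt 4.1 for trimming and STAR 2.7.9a for alignment to mm10 plus the reporter sequences, and StringTie 2.0.6 gave values for GENCODE VM23 genes. The deposited TPM values, per gene and library, are scaled by StringTie for length and library. The deposited FPKM values come from the same run, scaled to aligned fragments, and were used as an alternative. The deposited coverage values, mean depth per base, were used with FPKM only to derive the aligned bases per library. The study's own tests used counts that were not used here.

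TPM was summed per gene identifier, and 32235 of 32287 identifiers matched the GENCODE vM21 annotation used here for gene type and position, which is an earlier release than the authors' VM23. Protein-coding genes and the transgenes (21704), without those on the Y chromosome, were tested if above 1 TPM in at least 4 libraries of a comparison (3 where an E13.5 group was in it). Differences of log2(TPM + 1) were fitted with limma 3.58.1 (R 4.3.3; lmFit, eBayes with trend, two-sided) for each of 21 comparisons on its own libraries, with Benjamini-Hochberg adjustment over all genes tested. A pseudocount of 1 understates the change of low genes. Scripts were tested on simulated data. At E9.5 a library is a pool of 4 embryos and at E6.5 and E13.5 it comes from 1, so p-values measure the spread between these samples.

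Replicate numbers recur in all groups. Deviations from the group means correlated between same-numbered libraries of exEndo1 and exEndo2 in all 4 pairs (r from 0.132 to 0.361), so those numbers were taken to pair the samples, and in no other comparison were they. Fitting that pairing as a block kept both calls.

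The text names the 10 genes, up to 3 called genes with the largest difference per pathway list and comparison, the 3 genes nearest each member by Pearson's r, and the marker and reporter genes where they bear on a result. A few pathway genes that this rule would name are not reported here. The genes and lists were chosen with earlier results of these data known. Alternatives were a pseudocount of 0.1, no filter, median-ratio or quantile normalization, FPKM, eBayes without trend, a single fit of all 44 libraries, a replicate block, gut region as a covariate, and leaving out each library.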

Additional observations from a re-analysis of the deposited data

Results flagged for a closer look

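In 70 groups of 4 libraries with a highest level above 1 TPM, 10 held a library whose gap to its nearest neighbour was above Dixon's 95% limit as a share of the group's range. The limit is set to flag about 5% of groups of independent and normally distributed values. TPM need not be normal, and members move together within a library, so the count cannot be set against 5%. Where all other libraries were at 0, as for Apoa4 in exHindgut and Apoc2 and Apoc3 in emMidgut, the gap is the whole range by construction. In YsEndo, replicate 1 was lowest for Apoa1, at 14160 TPM against 18414 to 19249 TPM in the others, and for Apoe, at 6762 TPM against 10644 to 10853 TPM. In exEndo1, replicate 1 was lowest for Apoc1 (204 TPM against 297 to 311 TPM), and in exEndo2, replicate 2 was lowest for Apoa4 (220 TPM against 569 to 628 TPM).

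In emMidgut, Apoa4 stood out in replicate 4 (10.7 TPM against 0 to 0.828 TPM), as did Apoc2 (1.68 TPM against 0), and Apoc3 stood out in replicate 3 (6.27 TPM against 0). In the hindgut, Apoe was higher in emHindgut replicate 1 (27.4 TPM against 10.0 to 12.5 TPM), Apoc1 lower in emHindgut replicate 2 (3.18 TPM, with a highest value of 6.36 TPM in the others), and Apoa4 was above 0 in exHindgut replicate 4 alone (1.72 TPM).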

How the results depend on the processing

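Of 97 called member differences, given 1493 values under the alternatives, 1412 kept the call, 81 lost it and 0 reversed. Of 340 counts of called members, 299 stayed within 1.5 times the count reported and 41 moved. Numbers in brackets are the genes called among all genes tested in the same fit. With no filter the member count was 1 for exEndo1 against exEndo2 (594 of 20913) and 3 for exMidgut against emMidgut (173 of 16901). It was 0 for exSI against emSI (8 of 15899), emColon against emSI (3 of 16006) and exColon against exSI (2 of 15300). It was 3 for exSI against exMidgut (1377 of 16285) and for exColon against exHindgut (1003 of 16611). Without the trend it was 1 for exSI against emSI (42 of 11376) and 0 for emColon against emSI (66 of 11239) and exColon against exSI (66 of 11405). It was 3 for exSI against exMidgut (1766 of 12348) and for exColon against exHindgut (1299 of 12392). A single fit of all libraries tested 14689 genes. It gave 1 member for exEndo1 against exEndo2 (462 genes), 7 for exGut against emGut (586) and 1, Apoc1, for origin by region (68). At E13.5 it gave 1, Mttp, for exColon against emColon (1939), 4 for origin by organ (1337), 3 for emColon against emSI (1570) and 4 for exColon against exSI (1410). The fits reported above called 30, 2, 53 and 79 genes in these E13.5 comparisons, in the same order. For exColon against exSI a pseudocount of 0.1 gave 0 (11 of 11405), quantile normalization gave 2 (95 of 11405) and FPKM gave 2 (92 of 10997). Gut region as a covariate gave 6 for exGut against emGut (587 of 13473). The cause of these shifts was not tested.

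Leaving out 1 library gave 1 to 2 calls for exEndo1 against exEndo2 and for exHindgut against emHindgut, 0 to 1 for origin by region and for emColon against emSI, 2 to 4 for exSI against emSI, 0 to 2 for exColon against exSI, 2 to 5 for emSI against emMidgut, 3 to 5 for exSI against exMidgut and 3 to 6 for exColon against exHindgut. The counts of the other comparisons stayed within 1.5 times.

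The replicate number as a block kept both calls for exEndo1 against exEndo2, where the numbers pair the samples. Elsewhere the samples share only a number, with no comparison in which every pair's correlation was above 0.1. There the block gave 8 members for exMidgut against emMidgut, beside 333 of 12432 genes called, and 5 for exSI against emSI, beside 78 of 11376. It gave 1 (Apoe, adjusted p = 0.00759) for origin by organ, beside 3 of 12483, and 2 for exColon against exSI, beside 99 of 11405. The count was left as reported in the other comparisons fitted with the block. In 5 comparisons at E9.5 (exMidgut and exHindgut with each other, with their embryonic counterpart and with YsEndo) 3 of 4 pairs, and in each of 3 comparisons at E13.5 (all but emColon against emSI) 3 of 3, correlated best with their own number. That is a hint of pairing from the data, while the labels do not say which libraries share embryos.

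How far depth or the small number of cells per library set the values of the low genes was not tested. In exHindgut, replicate 1 (12.04 Gb aligned) listed Apoa1 at 0, and replicate 3 (3.528 Gb) listed it at 7.22 TPM. TPM gives no count, so a level listed at 0 has no upper limit here, and Apoa2, Apoa4, Apoc2 and Apoc3 were too low to test between the 2 origins in the hindgut.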
